A study of Mus musculus with 6 samples.

Results

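The Skint genes (selection and upkeep of intraepithelial T cells) form a cluster on mouse chromosome 4 and were followed here in inflamed and normal tail skin. Members were taken by name, as Skint1 to Skint10, and all 10 were found among the 18180 genes of the count table. Of these, 9 passed the filter on low counts and were tested among 15061 genes. Skint7 did not pass.

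The study sequenced RNA from mouse tail skin in 6 libraries, 3 in each of 2 groups. Libraries labelled cKO came from Mettl3fl/fl;K14creERT2+/- mice, in which Cre can be switched on by tamoxifen in keratin 14 (K14) expressing cells, the basal keratinocytes. Control libraries came from Mettl3fl/fl;K14creERT2-/- mice, which carry the same floxed Mettl3 alleles but no Cre. Per the series' design text, tamoxifen was injected on consecutive days, and weeks later tail skin was taken, from inflamed areas in Cre-carrying mice and from normal tails of controls. Genotype and inflammation therefore go together and cannot be told apart. The labels give no age, sex or strain. They also leave unsaid whether each library is its own animal, and the p-values below then reflect library-to-library spread alone, possibly technical. Library totals ran from 35855880 to 37043849 counts.

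Mettl3, the targeted gene, encodes the catalytic subunit of the complex that writes N6-methyladenosine on RNA. It had 569, 512 and 540 counts in the libraries labelled cKO, against 440, 389 and 337 counts in control libraries. Counted over the whole gene it was higher with the cKO label, by a log2 fold change of 0.48 (SE 0.11, adjusted p = 0.000102 by edgeR), which goes against that label. Gene counts do not show the floxed exon separately, so its loss could not be checked. Genes of inflamed epidermis ran the way the design text describes the groups: Krt6b and Krt16, keratins of wounded skin, were 38.7-fold and 18.8-fold higher with the cKO label. Groups are called by their labels throughout, and each direction rests on them. Keratinocyte transcripts were abundant in both groups: Krt14, a keratin of basal cells, averaged 7687 CPM in the libraries labelled cKO and 4157 CPM in control libraries, where CPM is the count scaled to library size.

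Skint proteins are membrane proteins of the immunoglobulin superfamily, related to the butyrophilins, with immunoglobulin-like domains outside the cell and several membrane-spanning segments. In mice they are made mainly by thymic epithelial cells and keratinocytes. Skint1 is needed in the thymus for the selection of the gamma-delta T cells that settle in the epidermis as dendritic epidermal T cells, and Skint3 and Skint9 have been linked in mouse skin to the exchange between wound-edge keratinocytes and these T cells.

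The family did not move as one. Relative to control skin, 7 of the 9 tested members were lower and 2 were higher in the libraries labelled cKO. Skint5 and Skint4 fell most, 9.32-fold and 4.73-fold, while Skint3 and Skint2 rose 1.86-fold and 2.10-fold. The median log2 fold change of the 9 members was -0.84, beside 0.00207 over all genes tested. Calls were common in this comparison: 61.4% of all tested genes passed an adjusted p under 0.05, 30.6% of them lower and 30.8% higher, expressed as shares of all tested genes. The groups did not overlap in any of the 9 members, and they did not overlap in 64.9% of all tested genes either, with all libraries labelled cKO below control in 32.3% (7 members) and above in 32.6% (2 members). A call or a lack of overlap was thus common among genes in general. Falls of at least 2-fold were called in 4.79% of tested genes and in 2 members, and rises of at least 2-fold in 5.98% of tested genes and in 1 member. These counts describe the members and were not tested as a set.

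**Figure D1:**
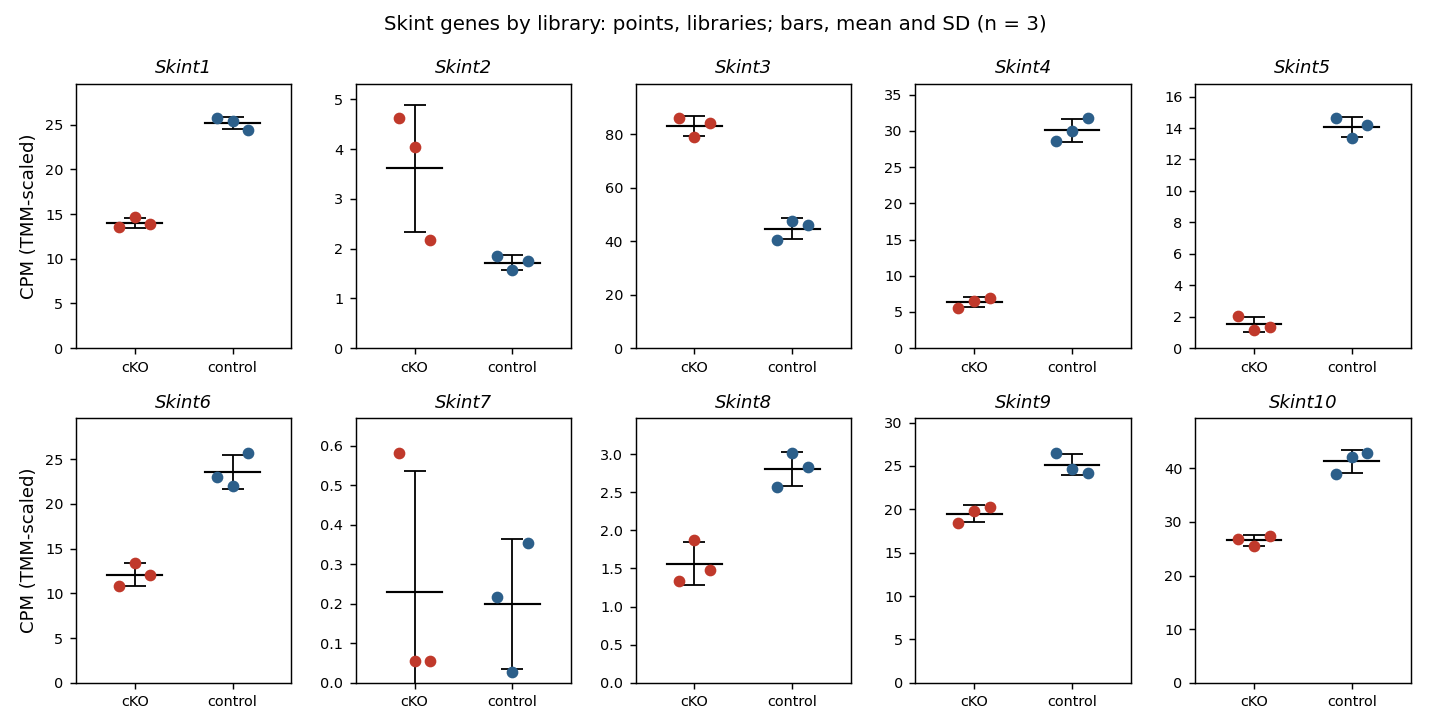
Level of each Skint gene in every library, in CPM (counts scaled to library size by TMM), with the 3 libraries labelled cKO on the left and the 3 control libraries on the right; horizontal lines are means and bars are SD (the SD of Skint7 in the cKO group runs below 0 and is cut at the axis). Points of the 2 groups lie apart for every gene but Skint7, with the cKO points above control for Skint2 and Skint3 and below for the other 7.

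Skint1, the selecting member, had 491, 532 and 504 counts in the libraries labelled cKO, against 945, 910 and 898 counts in control libraries. All 3 libraries labelled cKO lay well below the lowest control library, and the spread within each group was small. In CPM this was 14.03 ± 0.549 in the libraries labelled cKO and 25.2 ± 0.672 in control libraries (SD, n = 3 each), a 1.80-fold fall (log2 fold change -0.84, SE 0.086, adjusted p = 6.24e-14 by edgeR's quasi-likelihood test with Benjamini-Hochberg adjustment). In tissue of many cell types, fewer cells of a type and less RNA per cell cannot be told apart.

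Skint3 was the member with the most counts in both groups. It had 3106, 2866 and 3069 counts in the libraries labelled cKO, against 1482, 1705 and 1696 counts in control libraries. Every library labelled cKO exceeded the highest control library. Its level was 83.1 ± 3.71 CPM in the libraries labelled cKO and 44.7 ± 3.82 CPM in control libraries (log2 fold change 0.89, SE 0.051, adjusted p = 5.16e-26 by edgeR).

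Skint9, the other member linked to wound-edge keratinocytes in mice, went the opposite way by a small amount. It had 667, 718 and 739 counts in the libraries labelled cKO, against 973, 883 and 890 counts in control libraries, without overlap. Its fall was 1.29-fold (log2 fold change -0.36, SE 0.080, adjusted p = 6.15e-05 by edgeR), the smallest of any called member. The Skint9 call was lost (adjusted p = 0.303) if the spread between independent animals, as a biological coefficient of variation (BCV), was taken to be 20%.

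Skint2, also named B7S3 and described in mice as a ligand that restrains T cell activation, was a scarce transcript. It had 167, 147 and 79 counts in the libraries labelled cKO, against 68, 56 and 64 counts in control libraries. All libraries labelled cKO were above control, but the third one came close to the highest control library. The SD was 35.5% of the mean in the libraries labelled cKO and 8.499% in control libraries. The rise had a log2 fold change of 1.07 (SE 0.25, adjusted p = 0.000194 by edgeR). It was 0.85 without cKO replicate 1 (adjusted p = 0.0112), 0.98 without cKO replicate 2 and 1.34 without cKO replicate 3.

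Skint5 had 74, 42 and 48 counts in the libraries labelled cKO, against 537, 480 and 521 counts in control libraries. The highest library labelled cKO stayed far under the lowest control library. Its level was 1.51 ± 0.476 CPM in the libraries labelled cKO and 14.1 ± 0.624 CPM in control libraries (log2 fold change -3.22, SE 0.17, adjusted p = 2.28e-28 by edgeR). Ordered by log2 fold change from the strongest fall upwards, it stood at place 53 of the 15061 tested genes.

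Skint4 had 202, 237 and 254 counts in the libraries labelled cKO, against 1050, 1073 and 1167 counts in control libraries. The groups were again far apart, and the spread within them was modest. The log2 fold change was -2.24 (SE 0.098, adjusted p = 1.03e-32 by edgeR), place 127 among the tested genes. Skint4 and Skint5 were also the only members whose calls held with an assumed BCV of 40%, where 774 of all tested genes passed.

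Skint6 had 390, 487 and 438 counts in the libraries labelled cKO, against 843, 790 and 944 counts in control libraries. Every library labelled cKO lay below control, a 1.95-fold fall (log2 fold change -0.96, SE 0.094, adjusted p = 1.14e-14 by edgeR). Skint10 had 971, 923 and 997 counts in the libraries labelled cKO, against 1427, 1506 and 1574 counts in control libraries. It fell 1.55-fold, also without overlap (log2 fold change -0.64, SE 0.065, adjusted p = 6.19e-14 by edgeR).

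Skint8 was scarce, with 48, 68 and 54 counts in the libraries labelled cKO, against 94, 108 and 104 counts in control libraries. It fell 1.79-fold (log2 fold change -0.84, SE 0.27, adjusted p = 0.00575 by edgeR), with the widest SE among the tested members. Skint7 was close to the detection limit, with 21, 2 and 2 counts in the libraries labelled cKO, against 8, 1 and 13 counts in control libraries. The 2 groups overlapped throughout. Most of the counts in the libraries labelled cKO sat in 1 library, so a difference was not detectable at this depth, where 3 counts correspond to 0.0817 to 0.0837 CPM. Skint11, a further gene of the cluster that is not among the 10, had 165, 137 and 122 counts in the libraries labelled cKO, against 225, 213 and 201 counts in control libraries (log2 fold change -0.59, SE 0.18, adjusted p = 0.00289 by edgeR).

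Summed over all members, the family fell less than most of its parts. The 10 members together had 6137, 6022 and 6184 counts in the libraries labelled cKO, against 7427, 7512 and 7871 counts in control libraries. Summed to 1 feature in the same fit, the family fell 1.24-fold (log2 fold change -0.31, SE 0.028, adjusted p = 6.87e-16 by edgeR), a call lost with an assumed BCV of 20% (adjusted p = 0.399). Without Skint3, the sum was 3031, 3156 and 3115 counts in the libraries labelled cKO, against 5945, 5807 and 6175 counts in control libraries. That remainder fell 1.92-fold (log2 fold change -0.94, SE 0.034, adjusted p = 8.30e-38 by edgeR). Leaving out Skint3 was decided after its values were seen.

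The make-up of the family's counts shifted accordingly. Skint3 held 49.3% ± 1.54 of all Skint counts in the libraries labelled cKO and 21.4% ± 1.38 in control libraries (SD, n = 3 each). Skint4 held 3.78% ± 0.430 in the libraries labelled cKO and 14.4% ± 0.363 in control libraries, and Skint5 held 0.893% ± 0.274 in the libraries labelled cKO and 6.75% ± 0.435 in control libraries. Skint9 kept nearly the same place, with 11.6% ± 0.617 in the libraries labelled cKO and 12.1% ± 0.934 in control libraries, and its groups overlapped. Such shares do not depend on how libraries are scaled. They add up to the whole in each library, so a gain by Skint3 lowers the shares of the others. Separations of single members are therefore not independent results. For 8 of the 10 members the shares of the 2 groups did not overlap, which gives the smallest two-sided p that an exact permutation of 3 against 3 libraries allows, 0.1 (0.125 after adjustment over the 10 shares). The design cannot go below that, and the exact p was 0.6 for Skint9 and 0.8 for Skint7.

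**Figure D2:**
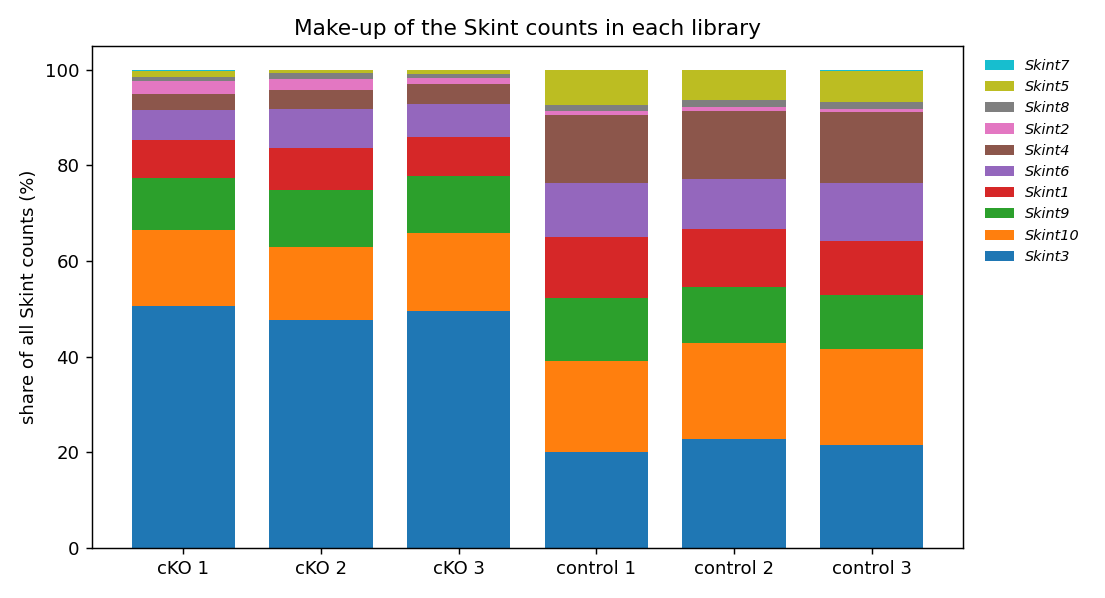
Share of all Skint counts held by each member, in percent, for each library (stacked bars; the 3 libraries labelled cKO on the left, the 3 control libraries on the right). Skint3 takes 47.6% to 50.6% of the bar in the libraries labelled cKO and 19.95% to 22.70% in control libraries, while the bands of Skint4 and Skint5 are narrower in the libraries labelled cKO.

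Levels of different genes can be compared only per length, for which the deposited FPKM (fragments per kilobase of gene length, scaled to depth) were used. In the libraries labelled cKO the order was Skint3 (21.8 ± 0.956 FPKM), Skint10 (15.5 ± 0.590), Skint9 (14.3 ± 0.700), Skint1 (11.2 ± 0.448), Skint6 (3.18 ± 0.347), Skint4 (1.51 ± 0.168), Skint2 (1.47 ± 0.522), Skint8 (1.13 ± 0.204), Skint5 (0.338 ± 0.106) and Skint7 (0.0553 ± 0.0730). Neighbours whose libraries overlapped in that order were Skint10 and Skint9, and the trio Skint4, Skint2 and Skint8. In control libraries the order was Skint10 (23.7 ± 1.22 FPKM), Skint1 (19.8 ± 0.513), Skint9 (18.2 ± 0.861), Skint3 (11.5 ± 0.995), Skint4 (7.01 ± 0.376), Skint6 (6.11 ± 0.496), Skint5 (3.10 ± 0.136), Skint8 (1.997 ± 0.164), Skint2 (0.689 ± 0.0582) and Skint7 (0.0473 ± 0.0387). Only Skint4 and Skint6 overlapped there. Skint3 thus took rank 1 per length in the libraries labelled cKO and rank 4 in control libraries. Skint1 took rank 4 in the libraries labelled cKO and rank 2 in control libraries, and Skint5 took rank 9 in the libraries labelled cKO and rank 7 in control libraries.

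**Figure D3:**
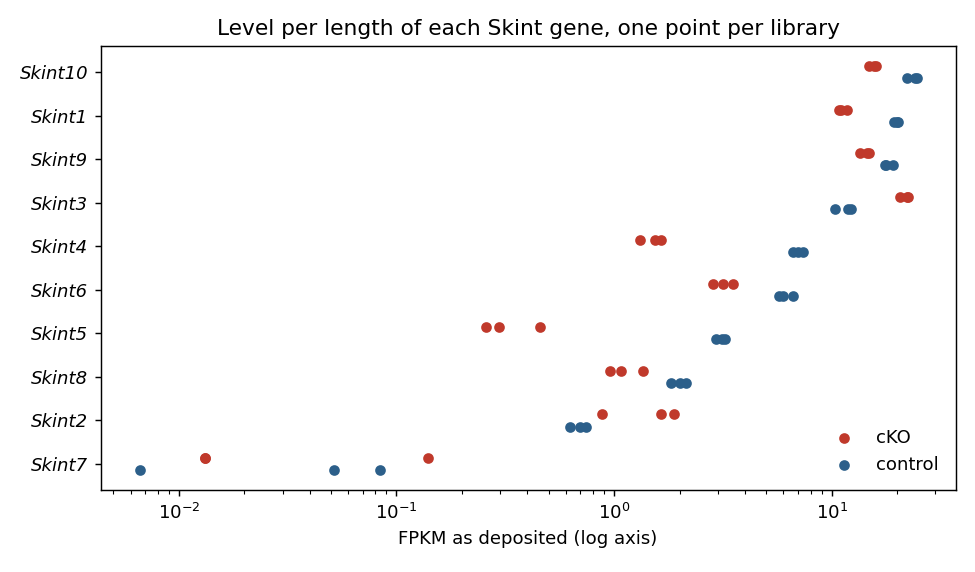
Deposited FPKM of each Skint gene on a log axis, 1 point per library, with the libraries labelled cKO drawn above the control libraries in each row and genes sorted by their control mean. Skint10, Skint1, Skint9 and Skint3 lie above 10 FPKM in every library of both groups, and Skint5 drops to a mean of 0.338 FPKM in the libraries labelled cKO, against 3.10 FPKM in control libraries.

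Members of the cluster resemble each other, so reads could in principle be assigned to the wrong copy. In the GENCODE M21 transcripts, which belong to an older build (GRCm38) than the mm39 of the deposited counts, no stretch of 100 bases of Skint1, Skint2, Skint3, Skint4, Skint5, Skint6, Skint9 or Skint10 occurred in another Skint gene. Skint7 and Skint8 were the exception, sharing 3.49% of the 100-base stretches of Skint7 and 2.95% of those of Skint8. At 50 bases, Skint7 and Skint8 shared 6.83% of the stretches of Skint7 and 5.81% of those of Skint8, and Skint5 and Skint6 shared 3.97% of those of Skint5 and 4.64% of those of Skint6. Skint2 and Skint3, the members that rose, shared 0.82% of the stretches of Skint2 and 0.49% of those of Skint3. Outside the family, 1.29% of the 50-base stretches of Skint2 occurred in Gm12814, and 2.31% of those of Skint8 occurred in other genes. At 100 bases neither Skint2 nor Skint8 shared a stretch outside the family. The read length is not given in the sources used here, and reads with mismatches were not considered. An exon of Skint6 overlapped an exon of Gm12823 on the opposite strand, and without a stated strand setting reads of these 2 cannot be told apart.

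Along the chromosome the RefSeq order is Skint8, Skint7, Skint1, Skint4, Skint3, Skint9, Skint2, Skint10, Skint6, Skint5 and Skint11. Direction did not follow position in blocks: Skint3, which rose, lies between Skint4 and Skint9, which fell by unequal amounts, and Skint2, the other riser, lies between Skint9 and Skint10. The log2 ratio of Skint4 to Skint3 was -3.94, -3.60 and -3.59 in the libraries labelled cKO, against -0.50, -0.67 and -0.54 in control libraries. That is a shift of -3.14 between group means, without overlap (exact permutation p = 0.1, the smallest possible with these libraries, and 0.133 adjusted over the 4 ratios computed, which were picked after values were seen). Outside the cluster, the nearest 5 tested genes before Skint8 held 1 lower and none higher. The nearest 5 after Skint11 held 1 lower and 3 higher. On the near sides, Slc5a9, a sugar transporter gene, had a log2 fold change of 0.04 (SE 0.079, adjusted p = 0.668 by edgeR) and Trabd2b, which encodes a Wnt-cleaving metalloprotease, fell 1.51-fold (log2 fold change -0.59, SE 0.13, adjusted p = 4.36e-05 by edgeR).

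**Figure D4:**
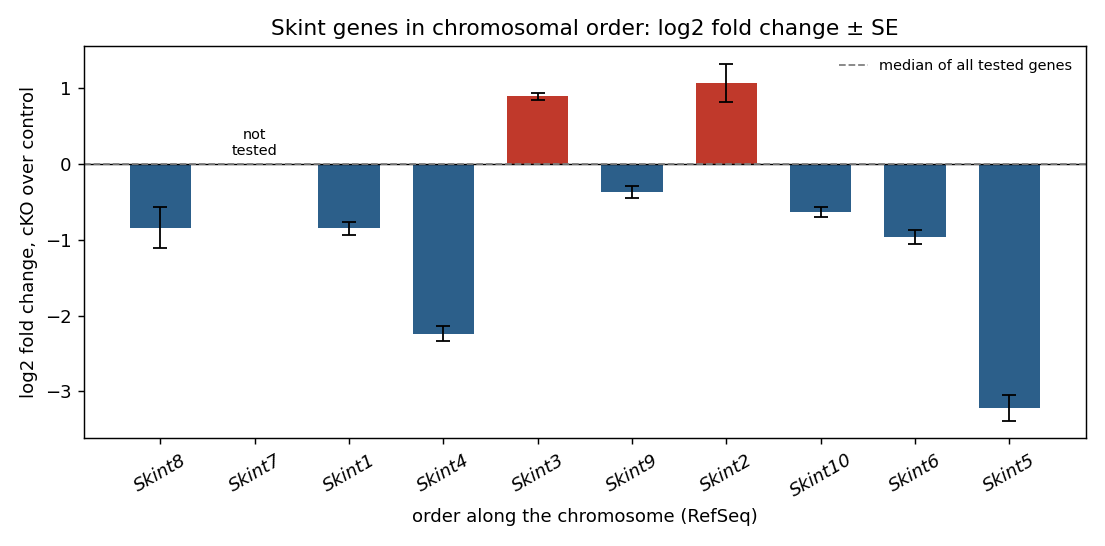
Log2 fold change of each Skint gene, libraries labelled cKO over control libraries, with the genes in their order along the chromosome; bars show the fitted value and whiskers its standard error, and the dashed line is the median of all tested genes. Skint3 and Skint2 point up (0.89 and 1.07) between neighbours that point down, and Skint4 and Skint5 reach -2.24 and -3.22.

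Skint5 and Skint6 are the pair with the most similar promoters, and they are shown because their changes were unequal. Of the RefSeq promoter windows (GRCm38.p6; 250 bases before to 50 after the start), 11 matched the 10 members, with 2 starts for Skint4. Over the whole window Skint5 and Skint6 were identical at 89.7% of positions, and the best local alignments of the next pairs covered less, with 63.3% of the window identical for Skint2 and Skint6 and 63.0% for Skint4 (its second start) and Skint3. The 250 bases before each start, on the minus strand, are given with the 28 positions that differ in capitals; Skint5 spans chr4:113999504-113999753 and Skint6 spans chr4:113286974-113287223.
Skint5: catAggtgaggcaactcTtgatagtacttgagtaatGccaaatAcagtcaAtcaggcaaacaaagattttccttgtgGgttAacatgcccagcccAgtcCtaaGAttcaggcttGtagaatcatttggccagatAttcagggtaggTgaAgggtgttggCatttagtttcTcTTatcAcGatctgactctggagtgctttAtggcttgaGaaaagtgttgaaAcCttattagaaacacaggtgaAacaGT
Skint6: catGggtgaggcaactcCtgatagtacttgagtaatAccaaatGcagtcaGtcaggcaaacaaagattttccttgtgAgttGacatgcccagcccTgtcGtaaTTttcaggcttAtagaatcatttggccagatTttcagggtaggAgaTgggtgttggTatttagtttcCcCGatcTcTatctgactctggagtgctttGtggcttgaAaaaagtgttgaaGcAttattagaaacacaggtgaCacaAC

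The log2 ratio of Skint5 to Skint6 counts was -2.40, -3.54 and -3.19 in the libraries labelled cKO, against -0.65, -0.72 and -0.86 in control libraries. The ratio was lower in every library labelled cKO, by 2.30 between group means on the log2 scale (exact permutation p = 0.1, the smallest possible, 0.133 adjusted over the 4 ratios). The windows of Skint9 and Skint10 aligned best over 168 bases, of which 138 were identical, or 46.0% of the window. The counts of Skint9 and Skint10 also shifted against each other. Their log2 ratio was -0.54, -0.36 and -0.43 in the libraries labelled cKO, against -0.55, -0.77 and -0.82 in control libraries. The groups came close but did not overlap (exact permutation p = 0.1, 0.133 adjusted). The remaining ratio computed, Skint2 to Skint3, was -4.22, -4.29 and -5.28 on the log2 scale in the libraries labelled cKO, against -4.45, -4.93 and -4.73 in control libraries. These overlapped, with a difference of 0.11 between group means (exact permutation p = 0.8, also 0.8 adjusted). The part of promoter sequence in these ratios was not tested.

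Among runs of at least 10 identical letters in the 250 bases before the start, the one shared by the most members was 14 bases long and occurred in 5 of them. It is shown in capitals with up to 20 bases on either side, 5′ to 3′ on the gene's strand. Its carriers were Skint1, Skint4, Skint5 and Skint6, which fell, and Skint3, which rose. Skint8, Skint9 and Skint10, which also fell, lacked it, as did Skint2, which rose. Log2 fold changes were -3.22, -2.24, -0.96, -0.84 and 0.89 for the carriers Skint5, Skint4, Skint6, Skint1 and Skint3. They were -0.84, -0.64, -0.36 and 1.07 for Skint8, Skint10, Skint9 and Skint2. Whether the run bears on these changes was not tested. The stretches lie at chr4:112006019-112006071 (Skint1, plus strand), chr4:112232122-112232175 (Skint3, plus), chr4:112081403-112081456 (second start of Skint4, plus), chr4:113999698-113999751 (Skint5, minus) and chr4:113287168-113287221 (Skint6, minus), all in GRCm38.p6, and none overlaps a Skint exon of GENCODE M21.
Skint1: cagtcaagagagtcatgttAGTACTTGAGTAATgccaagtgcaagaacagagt
Skint3: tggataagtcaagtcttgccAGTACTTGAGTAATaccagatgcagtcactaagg
Skint4: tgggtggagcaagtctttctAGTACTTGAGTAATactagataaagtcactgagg
Skint5: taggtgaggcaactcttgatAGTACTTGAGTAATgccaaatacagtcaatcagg
Skint6: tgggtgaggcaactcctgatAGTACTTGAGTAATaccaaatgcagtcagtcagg

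The first base of the run lies 231, 103, 47, 228 and 228 bases before the start of Skint1, Skint3, Skint4, Skint5 and Skint6. Of 32851 RefSeq windows, searched on both strands in the 250 bases before the start, 5 held it (0.015%), all of them these Skint windows. The run was picked from these promoters and is a description, not a site. Motifs were searched in the same 250 bases of each window. TATAAA (the TATA box) was in 6 of the 11 member windows on either strand, beside 12.4% of all windows. CCAAT was in 4 of 11, beside 33.8%. TGANTCA, the AP-1 motif, was in none of the member windows and in 6.7% of all windows, and an NF-kB consensus was in none and in 0.4%. TTCNNNGAA, the STAT motif, was in 1 member window, that of Skint8, and in 7.0% of all windows. A missing match says only that these letters are not in those 250 bases.

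Beside the Skint genes, transcripts of epithelial cells as a class differed by small amounts at the median. In the list of 20 pan-epithelial genes, 14 were lower and 4 higher, with a median log2 fold change of -0.11, and their summed level was 15106 to 15191 CPM in the libraries labelled cKO and 16023 to 16054 CPM in control libraries. Perp, a desmosomal and p53-regulated membrane protein gene and the most abundant of the list, had a log2 fold change of 0.03 (SE 0.00854, adjusted p = 0.00121 by edgeR), and Esrp1, an epithelial splicing regulator, fell by 0.62 on the log2 scale. Scaled on these genes alone, all 9 member calls were kept, and the members' log2 fold changes ran from -3.14 for Skint5 to 1.151 for Skint2. Under that scaling 60.7% of all calls were higher, beside 50.2% with the main scaling. Of 19 suprabasal and granular keratinocyte genes, 13 were higher and 6 lower (median 0.49): Krt1, the early suprabasal keratin, rose by 3.24 on the log2 scale and Krt2, a late suprabasal keratin, fell by 1.41. Of 11 basal keratinocyte genes, 6 were higher and 5 lower (median 0.17), and all 6 wound keratinocyte genes were higher (median 3.29). Of 12 sebaceous and hair follicle genes, 11 were lower and none higher (median -0.76), with a summed level of 9670 to 9725 CPM in the libraries labelled cKO and 38498 to 38636 CPM in control libraries. Krt36 and Krt84, keratins known also from the scale epidermis of the mouse tail, made up 49.8% of that sum in the libraries labelled cKO and 76.0% in control libraries. Without them the sum was 4852 to 4896 CPM in the libraries labelled cKO and 9227 to 9288 CPM in control libraries. The part of epidermal state in the Skint differences was not tested.

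Butyrophilin-type relatives of the Skint genes were scarce in this tissue. Of 8 butyrophilin-type genes in the table only Skint11 and Btnl9 could be tested, and Btnl9 had a log2 fold change of 0.13 (SE 0.59, adjusted p = 0.858 by edgeR). In the B7 family, the costimulatory and coinhibitory ligands to which butyrophilins are related, 4 of 7 tested genes were higher and 1 lower (median 0.32). Cd80 and Cd276 rose, by log2 fold changes of 1.76 and 1.03. Vtcn1, the coinhibitory ligand B7-H4, had 23, 20 and 12 counts in the libraries labelled cKO, against 89, 72 and 114 counts in control libraries (log2 fold change -2.31, SE 0.37, adjusted p = 8.79e-08 by edgeR).

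The epidermal T cells to which Skint genes have been linked could be followed only in part. The gamma-delta T cell receptor genes Trdc, Trdv4 and those of the gamma chain are not analysed here, nor are Trac, Trbc1 and Trbc2. Of 9 genes of the CD3 complex and T cell receptor signalling, 6 were higher and none lower in the libraries labelled cKO (median 1.03), with a summed level of 50.5 to 52.6 CPM in the libraries labelled cKO and 19.1 to 21.8 CPM in control libraries, most of it Ptprc, which all leukocytes express. Cd3g had 102, 115 and 89 counts in the libraries labelled cKO, against 47, 51 and 52 counts in control libraries. Cd3e had 25, 47 and 15 counts in the libraries labelled cKO, against 8, 20 and 28 counts in control libraries. Cd3g was higher and Cd3e overlapped between groups without a call (adjusted p of 0.00104 and 0.291 by edgeR).

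Of 16 tested genes listed for epidermal gamma-delta T cells, 8 were higher and 2 lower (median 0.66). Klrk1, the receptor NKG2D, had 99, 87 and 79 counts in the libraries labelled cKO, against 35, 31 and 35 counts in control libraries, and Il2rb, the receptor chain for interleukin 15, had 87, 85 and 104 counts in the libraries labelled cKO, against 13, 20 and 32 counts in control libraries. Itgae, the integrin that binds E-cadherin on keratinocytes, had a log2 fold change of 0.20 (SE 0.18, adjusted p = 0.354 by edgeR). Xcl1, a chemokine gene of activated dendritic epidermal T cells, had 2, 1 and 1 counts in the libraries labelled cKO, against 6, 8 and 8 counts in control libraries, too few to test. The summed level of this list was 225 to 231 CPM in the libraries labelled cKO and 237 to 238 CPM in control libraries, of which Egr3, which other skin cells also express, made up the largest part, with 101 CPM in the libraries labelled cKO and 124 CPM in control libraries. All 8 tested alpha-beta T cell markers were higher (median 2.55), with a summed level of 19.2 to 23.5 CPM in the libraries labelled cKO and 3.79 to 5.83 CPM in control libraries; Klrk1, Il2rb and the CD3 genes are also expressed by alpha-beta T or natural killer cells. No listed marker in the table was at 0 in all 6 libraries. Whether the Skint levels and these T cell transcripts depend on each other was not tested.

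Of 11 tested keratinocyte genes whose products act on epidermal T cells, 5 were higher and 2 lower (median 0.17). H60c, a skin ligand of NKG2D, had 4620, 4559 and 4562 counts in the libraries labelled cKO, against 3528, 3650 and 3398 counts in control libraries, without overlap. Il18 rose by a log2 fold change of 0.94, and Plxnb2, the receptor for the T cell protein CD100, by 0.35. Ccl27a, a chemokine gene of keratinocytes, and Il7, a growth factor gene for gamma-delta T cells, fell by 0.70 and 0.69 on the log2 scale (the adjusted p of Il7 was 0.0342 by edgeR). Il15 had a log2 fold change of -0.24 (SE 0.21, adjusted p = 0.335 by edgeR).

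**Figure D5:**
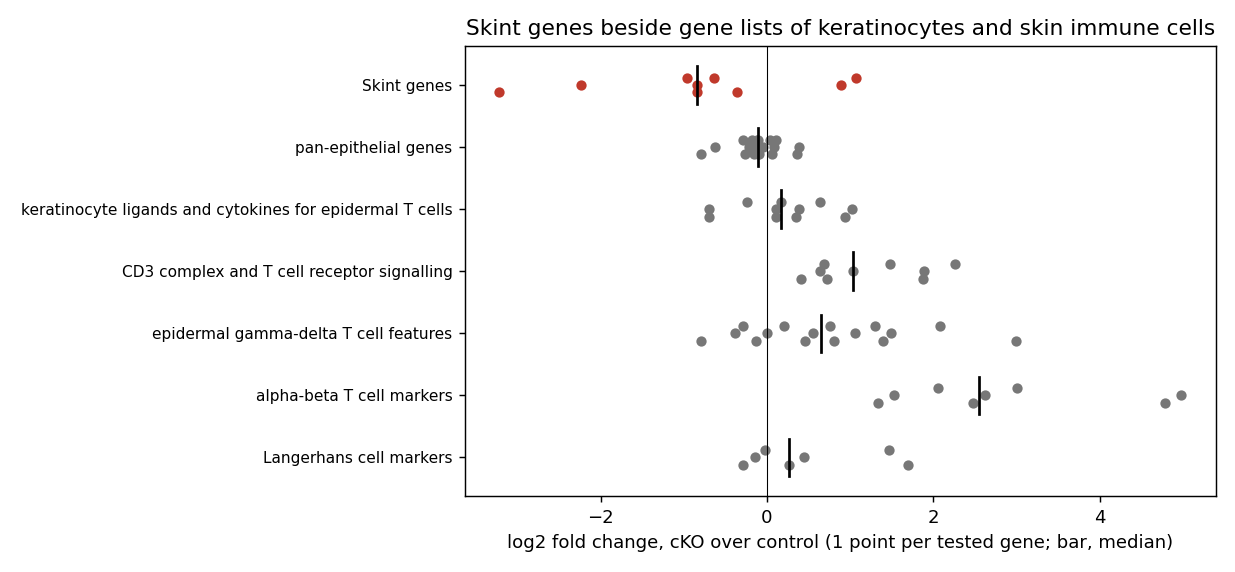
Log2 fold change of every tested gene in the Skint family and in lists of keratinocyte and immune cell genes, libraries labelled cKO over control libraries; each point is a gene and the vertical bar is the median of the list. The Skint genes spread from -3.22 to 1.07 with a median of -0.84, the pan-epithelial genes lie around -0.11, and the alpha-beta T cell markers lie at 1.34 or above.

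Among other immune and stromal markers, Langerhans cell markers had 3 of 7 higher and 2 lower (median 0.26). Cd207 (langerin), the defining one, had a log2 fold change of -0.02 (SE 0.18, adjusted p = 0.926 by edgeR). It averaged 4.81 CPM in the libraries labelled cKO and 4.88 CPM in control libraries. Epcam and Mfge8, which were lower, averaged 124 and 109 CPM in the libraries labelled cKO, against 152 and 120 CPM in control libraries. Csf1r, which was higher, averaged 114 and 95.2 CPM in these groups. Whether these more abundant transcripts come from Langerhans cells was not tested. All 5 tested neutrophil markers were higher, with a summed level of 3477 to 3538 CPM in the libraries labelled cKO and 100.2 to 105.9 CPM in control libraries. Of that sum, S100a8 and S100a9, which inflamed keratinocytes also express, made up 99.3% in the libraries labelled cKO and 93.6% in control libraries. The other 4 markers summed to 23.8 to 25.7 CPM in the libraries labelled cKO and 5.64 to 7.60 CPM in control libraries. Ly6g, a defining neutrophil marker, had 6, 1 and 8 counts in the libraries labelled cKO, against 0, 6 and 0 counts in control libraries, too few to test and with overlap. Macrophage markers were higher in 4 of 5, and summed to 266 to 285 CPM in the libraries labelled cKO and 178 to 188 CPM in control libraries. Fibroblast markers were higher in 6 of 7 and lower in 1, and skeletal muscle markers were higher in 2 of 6, summing to 22.3 to 34.6 CPM in the libraries labelled cKO and 13.98 to 19.5 CPM in control libraries. The part of these other cells in the Skint differences was not tested. The genes whose centred profile over the 6 libraries lay nearest to the median profile of the tested Skint members were Pim3, a serine/threonine kinase gene, Paip2b, which encodes a translation regulator, Slc25a1, the mitochondrial citrate carrier, Msx2, a homeobox gene, and Sgk1, a kinase gene. Their root mean square differences from that profile were 0.040 to 0.046 on the log2 scale, and they fell 1.65-fold to 1.69-fold. The measure covers 6 libraries in 2 groups and is a description.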

How the data were processed

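RNA-seq libraries of tail skin were prepared with a VAHTS Universal V5 kit, per the labels' protocols. The submitters' processing notes name fastp, HISAT2, HTSeq and mm39. For tool versions, annotation, strand setting and multiply aligned reads, the entry is: not given in the sources used here. The authors deposited raw counts per gene and FPKM for the same 18180 genes. Each deposited FPKM could be rebuilt from the count, a fixed length of the gene and the column total (relative tolerance 1e-06, all genes).

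Counts were tested over all 6 libraries in R 4.3.3 with edgeR 4.0.16 (filterByExpr with a minimum count of 10 and a minimum total of 15, TMM, robust quasi-likelihood fit with group as the only term). P-values were two-sided and adjusted by Benjamini-Hochberg over 15061 genes, with calls at 0.05. SE was taken as |log2 fold change| over sqrt(F). The steps were run on simulated counts, with far fewer changed genes and a wider spread between libraries than in these data. No result rests on that run. The median coefficient of variation within groups at 1000 to 3000 counts was 3.94% in the libraries labelled cKO and 3.95% in control libraries. No value column was left unmapped.

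Alternatives were DESeq2 1.42.0, limma 3.58.1 (voom, and log2 FPKM with a pseudocount of 1 or 0.1), other scalings and filters, the replicate number as a block, assumed BCVs, an adjusted p of 0.01 and leaving out each library. Sequence comparisons used Biopython 1.88, RefSeq promoter windows and GENCODE M21 transcripts. Members and gene lists were chosen with earlier results of these data known. Genes named are all members, up to 3 called genes with the largest changes and the 2 most abundant per list, the 5 nearest in profile and the 5 tested neighbours on each side; Cd3e, Cd3g, Cd207, Il15, Itgae, Xcl1, H60c and Ly6g, and the 2 sums without their most abundant genes, were added after their values were seen.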

Additional observations from a re-analysis of the deposited data

How the results depend on the processing

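All 9 member calls held under DESeq2, limma-voom, 3 other scalings, 2 other count filters, 3 limma fits on log2 FPKM, an adjusted p of 0.01 and each fit without 1 library, with 7 lower and 2 higher each time. Only the assumed spreads changed calls. With an assumed BCV of 20%, 6 members were lower and 2 higher, the summed family kept its log2 fold change of -0.31 without a call, and 3361 of all genes were called in place of 9244. With an assumed BCV of 40%, 2 members were lower and 0 higher by edgeR's likelihood ratio test (3 lower and 1 higher at an unadjusted p under 0.05), the summed family stood at -0.31 without a call, and 774 genes were called. On log2(FPKM + 1), which compresses low levels, Skint5 had a log2 fold change of -1.62 and Skint2 of 0.53, both still called. Replicate numbers are shared by the groups, but same-numbered libraries did not deviate together (correlations of -0.019, -0.015 and -0.057). With the replicate block the 7 lower and 2 higher calls stayed, at 9212 genes called in all. Depth limits Skint7, and the other scarce members Skint2 and Skint8 carry the widest errors. In the 6 settings in which Skint7 was tested its log2 fold change ran from -0.31 to 0.66 without a call (lowest adjusted p 0.543).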
